A study of Mus musculus with 11 samples.

Results

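The genes of antigen receptor assembly by V(D)J recombination, Rag1, Rag2 and Dntt, were followed through RNA-seq counts of mouse thymocytes sorted as negative for CD24 and TCRb. The 3 members were taken by gene symbol from 55870 Ensembl gene identifiers listed in 2 count tables, and all 3 are listed in both tables. The first table holds thymocytes of postnatal day 0 with the genotypes Bcl11b +/N440K, Bcl11b D/N440K and Bcl11b +/+, with 2 libraries of each. The second holds thymocytes of postnatal day 7 labelled Tcf7 F/F:Vav1-Cre, with 3 libraries, and Tcf7 +/+, with 2 libraries. N440K is an amino acid change in the zinc finger factor Bcl11b, and the labels do not spell out the allele written D. Vav1-Cre is a transgene active in blood-forming cells at large, so it acts in B-lineage cells as well as in T-lineage cells. The labels do not say whether the Tcf7 +/+ mice carried Cre, nor that the libraries of a group came from separate animals, so every p-value measures the spread between these libraries only. The study compared gene expression of this sorted fraction between genotypes.

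RAG1 and RAG2 together form the nuclease that cuts DNA beside the gene segments of T and B cell receptor loci. RAG1 carries the catalytic site and binds the recombination signals, and RAG2 is its obligate partner, which reads a histone mark of active chromatin. Dntt encodes terminal deoxynucleotidyl transferase (TdT), which adds bases without a template where the segments are joined. In the mouse thymus all 3 genes are active in developing αβ T cells before a receptor is completed, and TdT is scarce around birth and appears in the days after it. The same 3 genes are used by early B cells.

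Rag1 (ENSMUSG00000061311) lies on GRCm38 at chr2:101638282-101649501 on the minus strand, with 2 merged exons of 6608 bases in all. Rag2 (ENSMUSG00000032864) lies 5753 bp away at chr2:101624718-101632529 on the plus strand, with 3 merged exons of 3424 bases, so that the 2 genes point toward each other. Dntt (ENSMUSG00000025014) lies at chr19:41029275-41059525 on the plus strand, with 13 merged exons of 2292 bases. Since Rag1 and Rag2 were lower together in the results that follow, the 250 bases upstream of each RefSeq start are shown, read 5′ to 3′ on the strand of the gene (RefSeq, GRCm38.p6). They cover chr2:101649533-101649782 on the minus strand for Rag1, chr2:101624462-101624711 on the plus strand for Rag2 and chr19:41029025-41029274 on the plus strand for Dntt. Capitals mark E-boxes (CANNTG, the letters bound by E proteins) and RUNX cores (TGTGGT), searched on both strands.
Rag1 upstream: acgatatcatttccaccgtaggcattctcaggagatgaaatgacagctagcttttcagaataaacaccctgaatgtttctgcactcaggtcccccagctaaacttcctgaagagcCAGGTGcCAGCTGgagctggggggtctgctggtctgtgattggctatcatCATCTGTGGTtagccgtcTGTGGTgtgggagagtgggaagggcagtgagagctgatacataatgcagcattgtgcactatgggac
Rag2 upstream: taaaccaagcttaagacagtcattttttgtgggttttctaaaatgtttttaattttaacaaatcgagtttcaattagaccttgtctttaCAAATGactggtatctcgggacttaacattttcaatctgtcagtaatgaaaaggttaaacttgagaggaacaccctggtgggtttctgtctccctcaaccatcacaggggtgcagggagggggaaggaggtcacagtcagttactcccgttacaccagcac
Dntt upstream: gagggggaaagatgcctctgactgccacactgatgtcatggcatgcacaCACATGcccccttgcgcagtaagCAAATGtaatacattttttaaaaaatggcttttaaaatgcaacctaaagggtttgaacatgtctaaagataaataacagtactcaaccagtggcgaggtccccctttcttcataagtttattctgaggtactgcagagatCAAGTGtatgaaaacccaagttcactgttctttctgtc
The Rag1 window holds 3 E-boxes and 2 RUNX cores, and the E-box nearest the start overlaps the first RUNX core by 2 of its letters. The Rag2 window holds 1 E-box and the Dntt window 3, and neither holds TGTGGT. Of 32851 mouse windows of the same length, 66.2% hold an E-box and 14.05% a RUNX core. None of the 3 windows holds CTTTG, the core letters of TCF and LEF sites, which 48.6% of all windows hold. None holds TGACCA, the letters bound by BCL11A, which 11.4% hold. The search also covered GATA and TGGGAA, the Ikaros core, which are not marked. GATA has 4 matches in the Rag1 window, 1 in the Rag2 window and 1 in the Dntt window, and 53.6% of all windows hold it. TGGGAA has 1 match in the Rag1 window and 0 in the other windows, and 21.6% of all windows hold it. A match or its lack describes these letters only.

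Libraries of the Bcl11b table held 999381 to 1246272 counts, and the Tcf7 libraries held 1273997 to 1842717. Levels are given as CPM, counts over library sizes scaled by TMM within each table and brought to a common depth. The 2 tables were scaled apart, so levels set across them have no test. In edgeR's quasi-likelihood test, a gene was called at a Benjamini-Hochberg adjusted p under 0.05 over all genes tested, 10910 at postnatal day 0 and 12366 at postnatal day 7. Replicates of Tcf7 +/+ stood further apart than those of the other groups, with a chi-square per degree of freedom of 4.95, against 1.13 to 2.15 elsewhere. Bcl11b itself averaged 205.1 CPM in +/N440K, 177.6 CPM in D/N440K and 573.5 CPM in +/+. Tcf7 averaged 733.1 CPM in Tcf7 F/F:Vav1-Cre and 572.9 CPM in Tcf7 +/+, and a count over all exons cannot check a deletion of some of them. Cd24a, the gene of the marker used in the sort, had 0 to 4 counts in each library of +/N440K, D/N440K or Tcf7 F/F:Vav1-Cre, and 10 to 20 counts in each +/+ library of both tables. The 6 markers chosen for the sorted, innate-like fraction summed to 3287 to 3479 CPM in +/N440K and 3291 to 3461 CPM in D/N440K, against 3085 to 3134 CPM in +/+, and to 2084 to 2465 CPM in Tcf7 F/F:Vav1-Cre against 2493 to 2527 CPM in Tcf7 +/+. They did not move one way: in each N440K genotype 2 were higher and 3 lower than in +/+, and in Tcf7 F/F:Vav1-Cre 1 was higher and 3 lower. Over all genes tested, 4.79% were called higher and 5.3% lower in +/N440K, and 6.1% higher and 6.31% lower in D/N440K. In Tcf7 F/F:Vav1-Cre, 12% of all genes tested were called higher and 11.1% lower. The 3 markers lower in each case were Cd3e, a CD3 chain, Zbtb16, the PLZF factor of innate-like T cells, and Trdc, the TCR delta constant gene. Cd3e was at a log2 fold change of -0.71 in +/N440K, -1.11 in D/N440K and -1.30 in Tcf7 F/F:Vav1-Cre, Zbtb16 at -0.75, -0.55 and -1.99, and Trdc at -0.60, -1.30 and -1.56, and these edgeR calls held in every alternative. Il2rb, a receptor chain of innate-like lymphocytes, was among those higher in the N440K genotypes, at 0.43 in +/N440K and 0.46 in D/N440K. The part of these differences in the results for Rag1, Rag2 and Dntt was not tested.

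Rag1 was lower in both N440K genotypes than in +/+. It had 3 and 1 counts in the +/N440K libraries, or 2.45 and 0.987 CPM. It had 10 and 19 counts in the D/N440K libraries, or 8.56 and 19.3 CPM, and 205 and 260 counts in the +/+ libraries, or 209.7 and 215.9 CPM. Both N440K groups lay wholly below +/+, as did 23.8% of tested genes for +/N440K and 25.7% for D/N440K. The log2 fold change of Rag1 in +/N440K from +/+ was -6.81 ± 0.30 (SE, edgeR adjusted p = 2.67e-20), where 10.1% of genes were called and 5.3% were called lower. By p Rag1 had rank 2 of 10910 genes, and by fold rank 4 of 578 genes called lower. By pooled counts, Rag1 in +/N440K stood at 0.838% of its +/+ level, with an exact 95% interval of 0.2275% to 2.16% that covers counting error only. Each SE of a log2 fold change given here was worked back from the F statistic of the test. With only 4 counts in +/N440K this SE is too small, and the counting interval is the wider one. In D/N440K the log2 fold change from +/+ was -3.97 ± 0.20 (edgeR adjusted p = 2.79e-18), where 12.4% of genes were called and 6.31% were called lower. By pooled counts it stood at 6.33% of the +/+ level, with an interval of 4.19% to 9.21%. Both comparisons share the 2 +/+ libraries. In sorted bulk RNA, fewer cells with Rag1 RNA and less Rag1 RNA per cell cannot be told apart, and this holds for every gene here.

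Rag1 differed between the N440K genotypes too. With 29 counts in D/N440K and 4 in +/N440K it stood at 754.8% of the +/N440K level by pooled counts, with an exact 95% counting interval of 265.1% to 2955%. The log2 fold change was 2.84 ± 0.62 (edgeR adjusted p = 0.0142), where 0.532% of genes were called and 0.284% were called higher. The D/N440K libraries both lay above both +/N440K libraries, as did 17.8% of tested genes. This call did not hold with DESeq2 (adjusted p = 0.236), with limma-voom (adjusted p = 0.146), without replicate 2 of +/N440K (adjusted p = 0.0951) or without replicate 2 of D/N440K (adjusted p = 0.351).

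Rag2 was also lower in both N440K genotypes. It had 2 and 1 counts in +/N440K, or 1.63 and 0.987 CPM, and 1 count in each D/N440K library, or 0.856 and 1.02 CPM. In +/+ it had 11 and 18 counts, or 11.2 and 14.9 CPM. The N440K libraries lay below both +/+ libraries, as did 23.8% of tested genes for +/N440K and 25.7% for D/N440K. The N440K groups overlapped each other. The log2 fold change from +/+ was -3.20 ± 0.71 in +/N440K (edgeR adjusted p = 0.000919) and -3.68 ± 0.78 in D/N440K (edgeR adjusted p = 0.000346). The share of the pooled +/+ level was 10.1% in +/N440K, with a counting interval of 1.97% to 32.5%, and 6.999% in D/N440K, with an interval of 0.809% to 27.7%. Between D/N440K and +/N440K, with 2 and 3 counts, the edgeR adjusted p was 0.981, and counts this low cannot show whether Rag2 differed. The calls against +/+ did not hold with DESeq2 (adjusted p = 0.120 in +/N440K and 0.0718 in D/N440K), and the one in +/N440K did not hold without replicate 2 of +/+ (edgeR adjusted p = 0.0831).

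Dntt was at the limit of detection at postnatal day 0. It had 0 counts in both +/N440K and both D/N440K libraries, against 2 and 1 counts in the +/+ libraries, or 2.05 and 0.830 CPM. A count of 0 allows up to 1.34 CPM over the +/N440K group and 1.40 CPM over the D/N440K group, with 3 counts as the limit, and +/+ averaged 1.44 ± 0.86 CPM (SD, n = 2). The filter on low counts left Dntt untested, and in the edgeR fit without a filter its adjusted p was 0.804 for +/N440K and 0.774 for D/N440K against +/+, where 4.72% of genes were called in +/N440K and 6.03% in D/N440K. A difference in Dntt between these genotypes was not detectable at this depth.

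At postnatal day 7 all 3 members were lower in Tcf7 F/F:Vav1-Cre than in Tcf7 +/+. Rag1 had 1, 2 and 1 counts in the Tcf7 F/F:Vav1-Cre libraries, or 0.809, 1.13 and 0.556 CPM, against 581 and 708 counts in the Tcf7 +/+ libraries, or 327.4 and 399.1 CPM. The log2 fold change of Rag1 was -8.65 ± 0.27 (edgeR adjusted p = 1.87e-12), the smallest p of 12366 genes, where 23.2% of genes were called and 11.1% were called lower. By pooled counts Rag1 stood at 0.229% of the Tcf7 +/+ level, with a counting interval of 0.0624% to 0.588%. That interval is wider than the SE of Rag1, which is too small for so few counts. Rag2 had 0 counts in all 3 Tcf7 F/F:Vav1-Cre libraries, against 24 and 30 in Tcf7 +/+, or 13.5 and 16.9 CPM. Rag2 was thus at least 24.37-fold lower (edgeR adjusted p = 1.38e-05), a bound taken at 3 counts over the group. Dntt had 0 counts in all 3 Tcf7 F/F:Vav1-Cre libraries too, against 72 and 56 in Tcf7 +/+, or 40.6 and 31.6 CPM. Dntt was at least 57.76-fold lower (edgeR adjusted p = 1.76e-07). No library of one genotype reached the other for any of the 3 genes, as was so downward for 24.1% of tested genes. All 3 calls held in each of the 12 alternative fits, among them those that left out each library in turn.

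**Figure D1:**
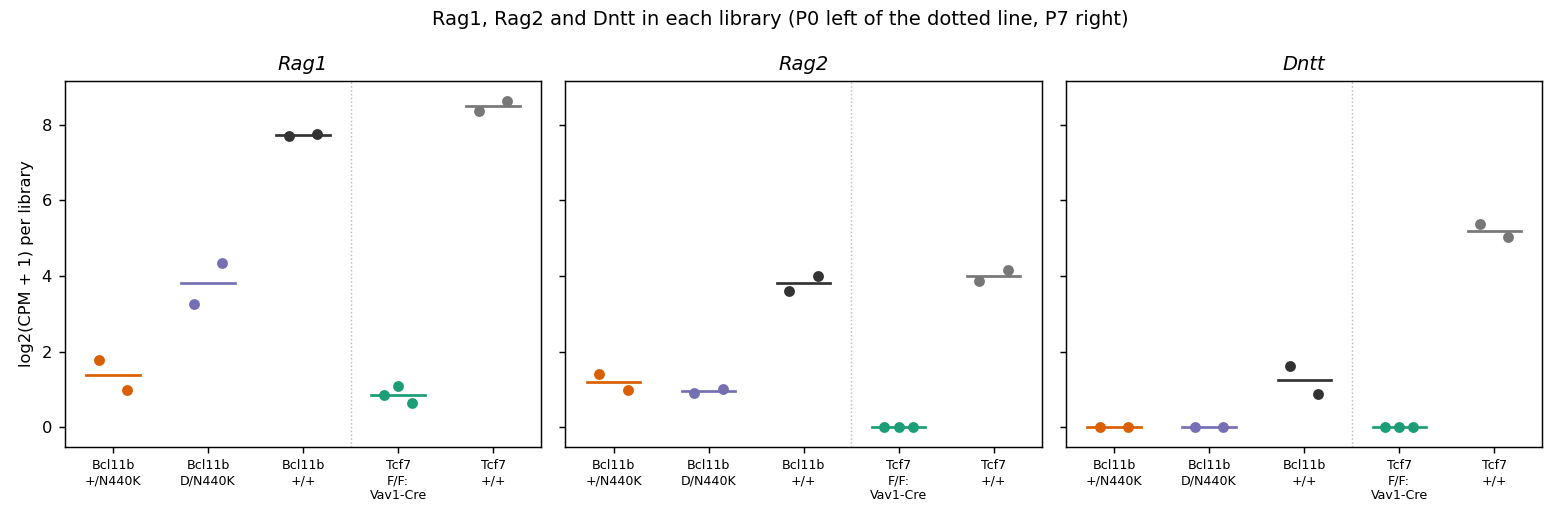
Level of Rag1, Rag2 and Dntt in each of the 11 libraries, as log2(CPM + 1), with a dot per library and a bar at the group mean of the plotted values. Rag1 lies highest in the +/+ groups of both tables, Rag2 is likewise highest in both +/+ groups, at lower levels, and Dntt is well above 0 in Tcf7 +/+ alone.

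Between members, levels were compared per length of merged exon. The Tcf7 +/+ libraries held Rag1 at 55.0 ± 7.7 CPM per kb, Dntt 15.7 ± 2.8 and Rag2 4.44 ± 0.70 (SD, n = 2), and the 3 ranges did not overlap. In Bcl11b +/+, Rag1 averaged 32.2 ± 0.7 CPM per kb, Rag2 3.83 ± 0.76 and Dntt 0.627 ± 0.375 (SD, n = 2). Rag2 thus ranked below Dntt at postnatal day 7 and above it at postnatal day 0, in control libraries that differ in age, mouse line and table, which cannot be told apart. Over all groups, with the tables scaled apart, the order of Rag1 by mean CPM was Tcf7 +/+ at 363.2 ± 50.7, Bcl11b +/+ at 212.8 ± 4.3, D/N440K at 13.9 ± 7.6, +/N440K at 1.72 ± 1.03 and Tcf7 F/F:Vav1-Cre at 0.832 ± 0.288, and only the lowest 2 groups overlapped.

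The balance of the RAG pair was read as the share of Rag2 in Rag1 plus Rag2 reads. It was 6.45% in D/N440K, with 2 of 31 reads, against 5.87% in Bcl11b +/+, with 29 of 494 reads. The exact 95% (Clopper-Pearson) interval was 0.791% to 21.4% in D/N440K and 3.97% to 8.32% in Bcl11b +/+. In +/N440K only 7 reads were left, 3 of them from Rag2, and the interval ran from 9.90% to 81.6%. It lay above the interval of Bcl11b +/+, but no +/N440K library held more than 3 counts of either gene. Whether background reads set this share was not tested. Of 4 reads in Tcf7 F/F:Vav1-Cre, 0 came from Rag2, which allows a share of up to 60.2%, against 54 of 1343 reads or 4.02% in Tcf7 +/+ (3.04% to 5.21%). Reads of different libraries were pooled for these shares, and their intervals cover counting error only. The shares are per read and were not divided by exon length.

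Of the other genes tested within 100 kb of the RAG pair, none was called lower. Traf6, a ubiquitin ligase of receptor signalling 28928 bp from Rag1, averaged 71.5 CPM in +/N440K, 62.8 CPM in D/N440K and 62.2 CPM in +/+. It was called in no comparison, with edgeR adjusted p of 0.617 and 0.996 against +/+, and averaged 96.9 CPM in Tcf7 F/F:Vav1-Cre against 116.4 CPM in Tcf7 +/+ (adjusted p = 0.244). Prr5l, a partner of the mTORC2 kinase complex 64784 bp from Rag1, was higher in both N440K genotypes. It had 102.0 and 95.7 CPM in +/N440K and 148.2 and 128.2 CPM in D/N440K, against 34.8 and 32.4 CPM in +/+. The log2 fold changes were 1.56 ± 0.18 in +/N440K (edgeR adjusted p = 3.06e-08) and 2.05 ± 0.17 in D/N440K (edgeR adjusted p = 4.69e-12). The log2 fold change of Prr5l in Tcf7 F/F:Vav1-Cre was 0.50 ± 0.23 (edgeR adjusted p = 0.120). B230118H07Rik, a minus-strand gene that spans both RAG genes and shares 80 exon bases with Rag1 and 208 with Rag2, had 3 counts in +/N440K, 2 in D/N440K and 9 in +/+, and 8 in each Tcf7 group. Rag1 lies on the same strand, so reads of the 80 bases shared with it cannot be told apart by strand. The strand used in counting is not given in the sources used here, so reads of the 208 bases shared with Rag2 cannot be told apart either. Gm20693, the remaining gene in that window, had at most 1 count in any library. Within 100 kb of Dntt, Opalin had 0 counts in every library and Tll2 at most 1. Blnk, an adaptor of B cell receptor signalling, averaged 42.7 CPM in Tcf7 F/F:Vav1-Cre and 68.2 CPM in Tcf7 +/+ (log2 fold change -0.67 ± 0.23, edgeR adjusted p = 0.0466), a call that ended in 8 of 12 alternatives.

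**Figure D2:**
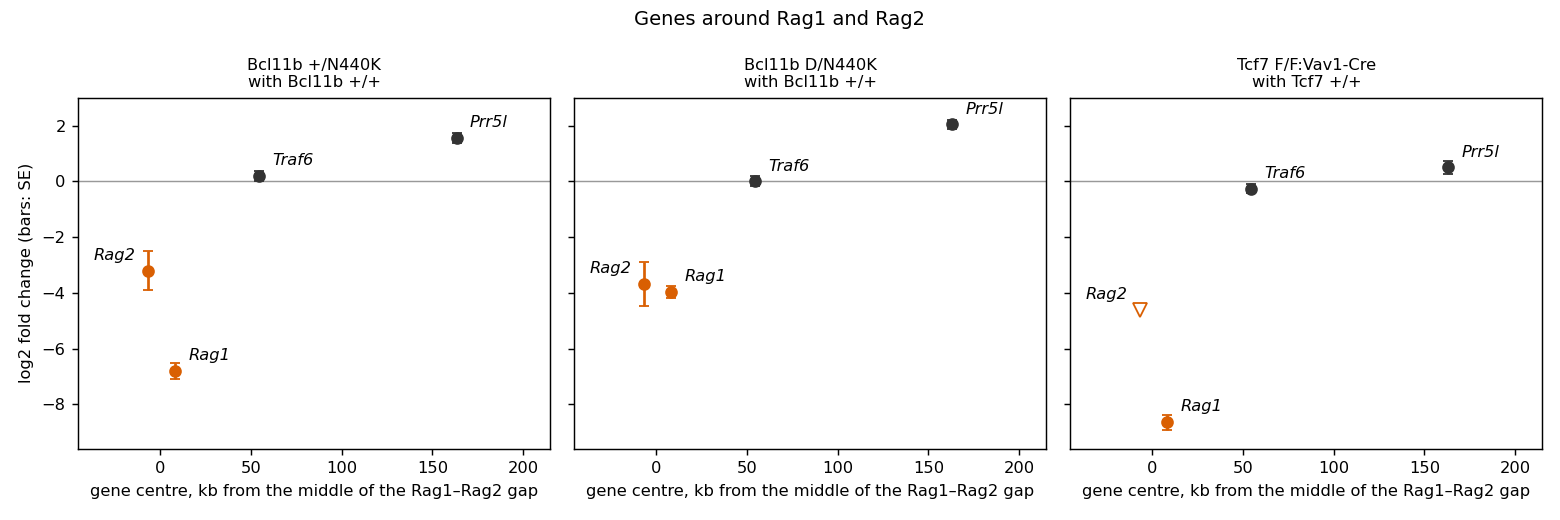
Log2 fold change (dots, with SE bars) of the genes tested around Rag1 and Rag2, against the distance of each gene's centre from the middle of the gap between them. The SE was worked back from the F statistic of the test, and its bars are too short for Rag1 and Rag2, which have few counts. Rag1 and Rag2 lie below 0 in all 3 panels, Traf6 lies near 0 and Prr5l lies above it; the open triangle is the bound for Rag2, at least 24.37-fold lower.

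DNA breaks made by RAG are closed by the end joining machinery. The end joining list of 21 genes also held cleavage partners and genes that sense or mark breaks. Of these genes 19 were tested at postnatal day 0 and 21 at day 7. In +/N440K 3 were lower and 1 higher, 5 were lower in D/N440K, and 5 were lower at postnatal day 7 in Tcf7 F/F:Vav1-Cre. Over all genes tested, 5.3% were called lower and 4.79% higher in +/N440K, 6.31% lower in D/N440K and 11.1% lower in Tcf7 F/F:Vav1-Cre. The median log2 fold change of the list was -0.13 in +/N440K and -0.12 in D/N440K, where that of all genes tested was 0.00, and -0.33 in Tcf7 F/F:Vav1-Cre, where that of all genes tested was -0.01. Lig4, the ligase that seals the joint, was lower in all 3. Lig4 had 4.90 and 1.97 CPM in +/N440K and 7.71 and 12.2 CPM in D/N440K, against 21.5 and 22.4 CPM in +/+. It had 8.09, 7.34 and 5.56 CPM in Tcf7 F/F:Vav1-Cre, against 18.0 and 23.7 CPM in Tcf7 +/+. Its log2 fold change was -2.58 ± 0.48 in +/N440K (edgeR adjusted p = 0.000128), -1.16 ± 0.39 in D/N440K (adjusted p = 0.0386) and -1.59 ± 0.33 in Tcf7 F/F:Vav1-Cre (adjusted p = 0.00172). The call in D/N440K ended with DESeq2 (adjusted p = 0.568) and without any 1 of the 4 libraries compared, where the adjusted p ran up to 0.380, and the other calls of Lig4 held in every alternative.

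Other genes of the end joining list were called as well. In the N440K genotypes, Xrcc6, a subunit of the Ku end-binding complex, was lower, with log2 fold changes of -0.62 in +/N440K and -0.86 in D/N440K. Dclre1c, which encodes the hairpin-opening nuclease Artemis, was lower at -0.64 in +/N440K and -0.73 in D/N440K, and H2afx, a histone variant marked at breaks, was higher at 0.39 in +/N440K. Parp1, a break sensor, was lower at -0.38 in D/N440K, as was Prkdc, the DNA-dependent protein kinase, at -0.39. None of these calls held with DESeq2, with adjusted p from 0.0888 for Xrcc6 in D/N440K to 0.522 for Prkdc, and each except Xrcc6 in D/N440K also ended without some single library. At postnatal day 7, Xrcc4, the partner of the ligase, was lower in Tcf7 F/F:Vav1-Cre at -1.59, Rif1 at -0.83, the kinase Atm at -0.64 and Prkdc at -0.57, and all 4 calls ended without Tcf7 +/+ replicate 2 (adjusted p = 0.163 for Xrcc4, 0.0641 for Rif1, 0.518 for Atm and 0.415 for Prkdc).

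**Figure D3:**
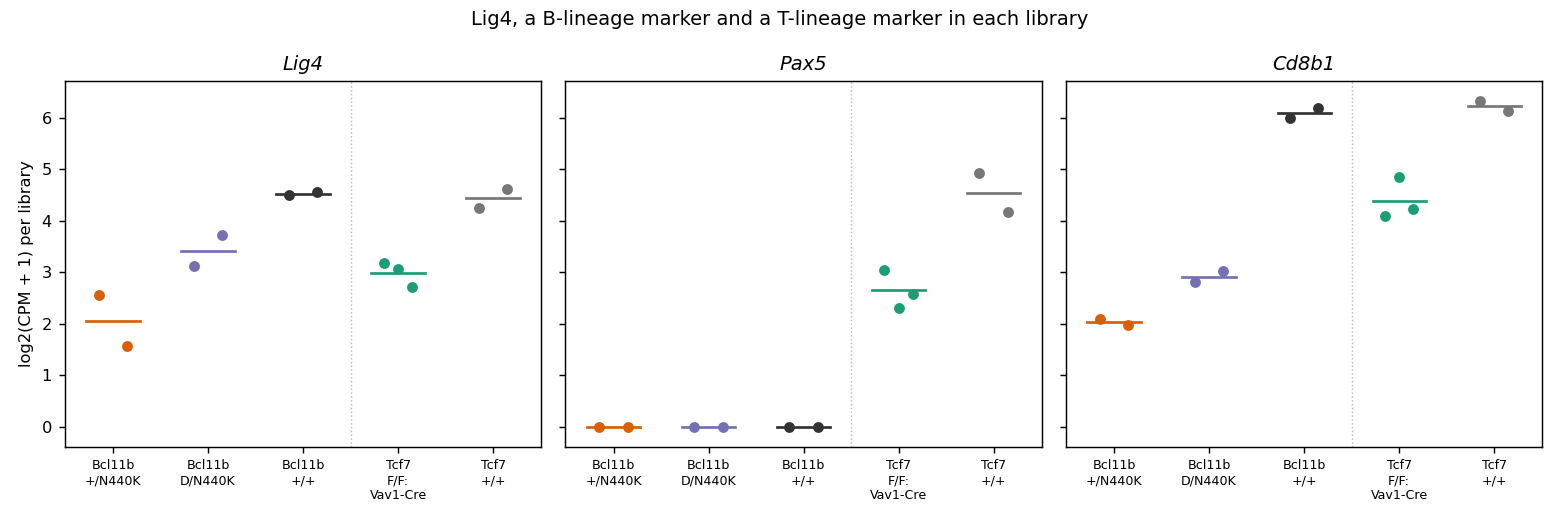
Level of Lig4, of the B-lineage factor gene Pax5 and of Cd8b1, the CD8 beta chain of developing T cells, in each library as log2(CPM + 1), with a bar at the group mean of the plotted values. Lig4 is lower in each of the other groups than in the +/+ group of its table, and Pax5 is at 0 in the 6 libraries of postnatal day 0 and highest in Tcf7 +/+.

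A list of 28 transcription factors and regulators, several of them known to act on the Rag genes, was set beside the members, with 27 tested in each table. In +/N440K 16 were lower and 1 higher (median log2 fold change -0.39), and in D/N440K 16 were lower and 3 higher (median -0.35). At postnatal day 7, 10 were lower and 9 higher in Tcf7 F/F:Vav1-Cre (median -0.09). Over all tested genes, 5.3% were called lower and 4.79% higher in +/N440K, and 6.31% lower and 6.1% higher in D/N440K. At day 7 in the Tcf7 comparison, 11.1% were called lower and 12% higher. Those of smallest p in +/N440K included Lef1, of the same family as Tcf7, at a log2 fold change of -1.79. Bcl11b at -1.48 and Myb, a factor of progenitors, at -1.81 were among them too. Ikzf2 at -0.96, Satb1, a chromatin organiser needed for full Rag expression in mouse thymocytes, at -1.03, Runx1 at -0.80, Bcl11a at -1.10 and Foxo3 at -0.72 were lower as well. Id2, an inhibitor of E proteins, was the one gene higher, at 0.81. In D/N440K, Lef1 was at -1.85, Bcl11b at -1.70, Satb1 at -1.35, Ikzf2 at -0.98, Myb at -1.77, Id3 at -1.59, Runx1 at -0.84, Foxo3 at -0.72 and Id2 at 1.00. Each of these changes was called by edgeR and held in every alternative.

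The changes of smallest p in Tcf7 F/F:Vav1-Cre went both ways. Satb1 had 125.3, 120.9 and 124.1 CPM in Tcf7 F/F:Vav1-Cre, against 636.2 and 784.6 CPM in Tcf7 +/+ (log2 fold change -2.53 ± 0.13, edgeR adjusted p = 4.94e-10). Myb had 26.7, 26.6 and 28.9 CPM in Tcf7 F/F:Vav1-Cre, against 198.3 and 266.6 CPM in Tcf7 +/+ (-3.08 ± 0.18, edgeR adjusted p = 2.01e-09). Id3 at -2.67, Lef1 at -1.09, Tcf12, an E protein, at -0.65 and Ikzf1, the gene of Ikaros, at -0.58 were lower, and Spi1 at 1.08, Id2 at 0.70 and Foxo3 at 0.56 were higher. Of these genes, Foxo3 alone lost its call in an alternative, without Tcf7 F/F:Vav1-Cre replicate 3 (adjusted p = 0.0518).

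**Figure D4:**
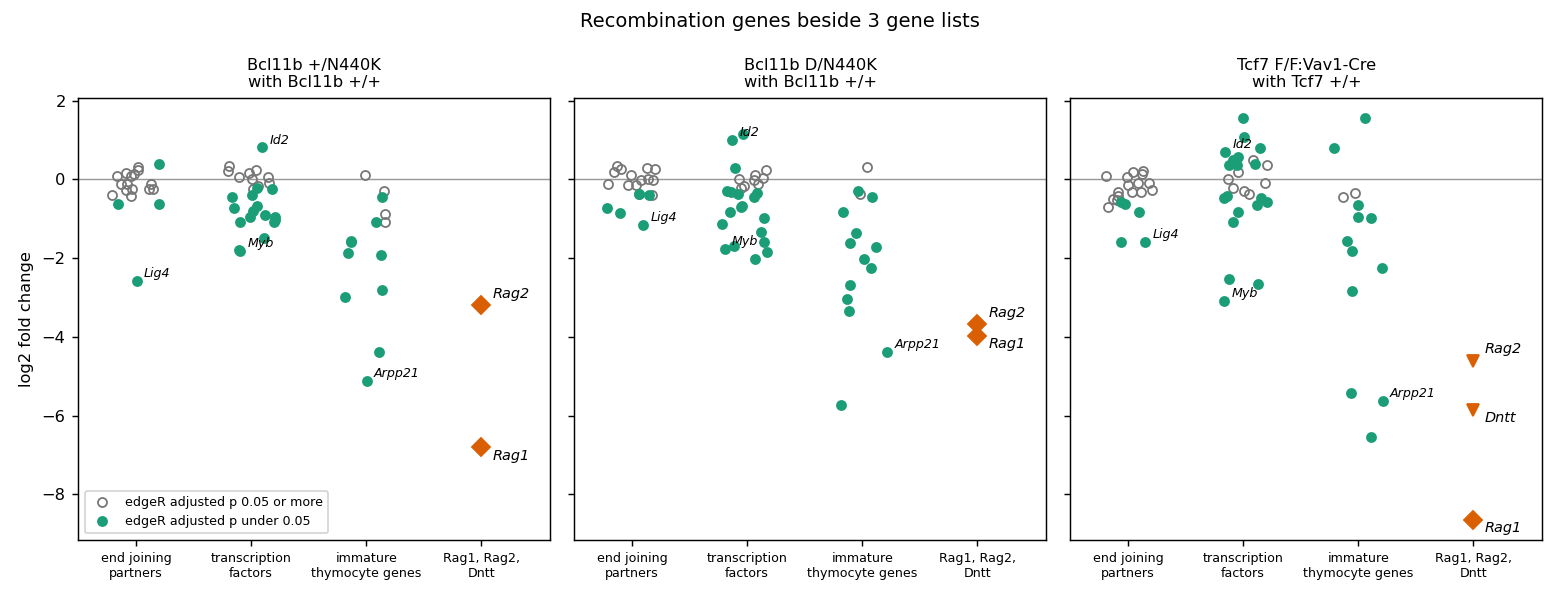
Log2 fold changes of the tested genes of 3 lists beside Rag1, Rag2 and Dntt, with a dot per gene, filled where edgeR called it, diamonds for members and triangles for the bounds of members with 0 counts. Genes with 0 counts in a group are left out of the lists, and the sideways spread of dots has no meaning. In the 3 panels the members lie below every plotted gene of the end joining and factor lists, while the immature thymocyte genes reach into their range.

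The 6 genes nearest to Rag1 in profile, by the root mean square difference of centred log2(CPM + 1) over the 11 libraries, were Arpp21 at 1.09, Endou at 1.12, Sox13 at 1.25, Rapgef3 at 1.34, Slc16a5 at 1.39 and Hspg2 at 1.61, where the median of 10252 genes was 3.19. Arpp21, a phosphoprotein gene active in immature thymocytes, had 5.71 and 0.987 CPM in +/N440K and 0.856 and 12.2 CPM in D/N440K, against 129.9 and 127.0 CPM in +/+. It had 2.43, 2.83 and 2.22 CPM in Tcf7 F/F:Vav1-Cre, against 131.9 and 122.3 CPM in Tcf7 +/+. In D/N440K it was higher in replicate 2 than in replicate 1, with 12 and 1 counts, as Rag1 was. These libraries were among the 11 by which Arpp21 was picked as near to Rag1. Endou, an endoribonuclease gene, had 0 counts in both +/N440K libraries and 0 and 1 in D/N440K, against 32 and 35 in +/+, and 0 counts in all 3 Tcf7 F/F:Vav1-Cre libraries, against 58 and 43 in Tcf7 +/+. Sox13, a factor of γδ T cells, averaged 18.8 CPM in +/N440K, 11.3 CPM in D/N440K and 467.8 CPM in +/+, and 5.61 CPM in Tcf7 F/F:Vav1-Cre against 238.4 CPM in Tcf7 +/+. The 6 nearest to Rag2, whose own spread is smaller, were D130019J16Rik at 0.368, Cd6 at 0.413, Igfbp4 at 0.430, Gm37176 at 0.441, Nsg2 at 0.465 and Fbln1 at 0.494, where the median of 10253 genes was 1.64. Dntt was not tested in both tables and was left out.

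**Figure D5:**
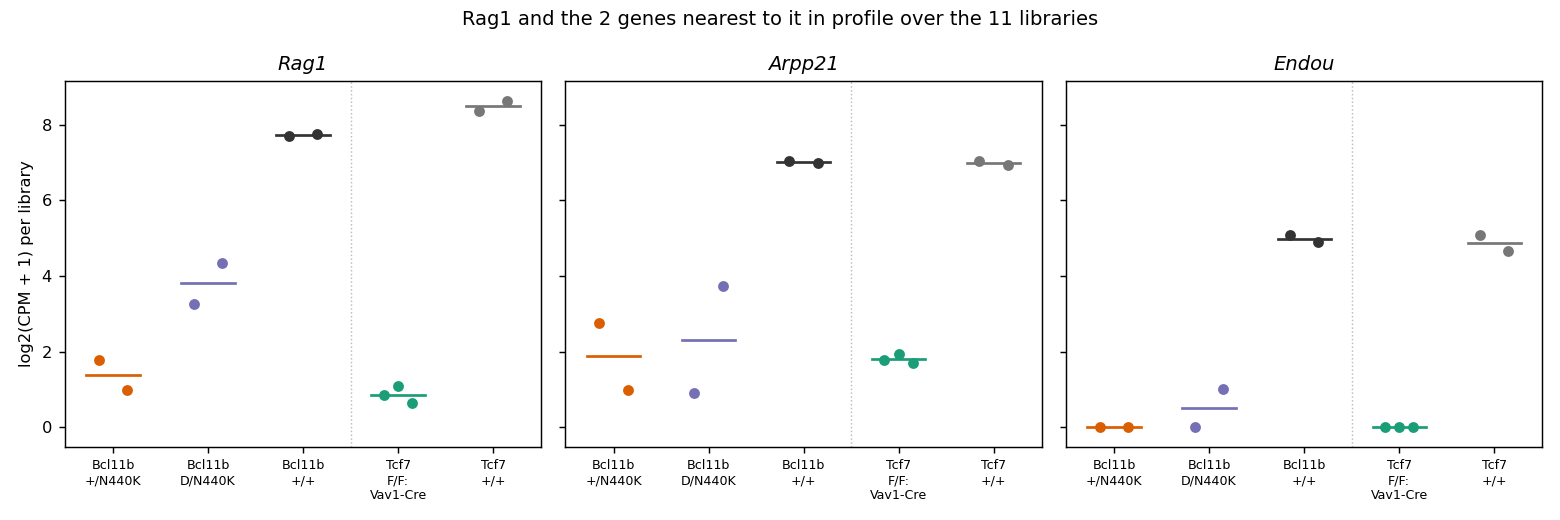
Level of Rag1 and of the 2 genes nearest to it in profile, Arpp21 and Endou, in each of the 11 libraries as log2(CPM + 1), with a bar at the group mean of the plotted values. All 3 genes lie high in the +/+ groups of both tables and low in the other groups.

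Most tested markers of developing αβ T cells were lower in the groups in which Rag1 was lower than in +/+. Of 18 immature thymocyte genes 15 were tested, and 11 were lower in +/N440K (median log2 fold change -1.59), 13 in D/N440K (median -1.72) and 11 in Tcf7 F/F:Vav1-Cre (median -1.57), where 2 were higher, Cd4 among them. Over all genes tested, 5.3% were called lower in +/N440K and 6.31% in D/N440K. In Tcf7 F/F:Vav1-Cre, 11.1% of all genes tested were called lower and 12% higher. Ordered by p rather than by fold, the first in +/N440K were Arpp21 at -5.12, Cd8b1, the CD8 beta chain, at -4.39, Cd8a at -1.87 and Cd4 at -2.80. In D/N440K they included Cd8a at -3.03, Arpp21 at -4.38 and Cd8b1 at -3.35. Between D/N440K and +/N440K, where 0.247% of all genes were called lower, Cd8a was lower at -1.15 (edgeR adjusted p = 0.0264), a call that ended in 5 alternatives. Arpp21 was lower in Tcf7 F/F:Vav1-Cre at -5.63, Sh2d1a at -6.56 and Themis, a T cell signalling gene, at -5.43. The summed level of 9 double-positive and pre-TCR markers was 231.0 to 249.7 CPM in +/N440K and 151.7 to 157.6 CPM in D/N440K, against 821.9 to 866.5 CPM in +/+. That sum was 1120 to 1181 CPM in Tcf7 F/F:Vav1-Cre and 838.1 to 926.9 CPM in Tcf7 +/+, although 6 of its 8 tested genes were lower. Ptcra, the pre-TCR alpha chain and a defining marker of the stage, had 1 and 0 counts in +/N440K and 0 and 1 in D/N440K, against 6 and 6 in +/+. It had 2, 5 and 9 counts in Tcf7 F/F:Vav1-Cre, against 1 and 2 in Tcf7 +/+. The part of these cells in the levels of Rag1, Rag2 and Dntt was not tested.

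Early B cells use the same genes, so their 12 markers were read beside the members. At postnatal day 0, Pax5, Ms4a1, Igll1, Vpreb2 and Vpreb3 had 0 counts in all 6 libraries, and Vpreb1, of the surrogate light chain, had 0 counts in both N440K genotypes against 4 in +/+. The summed level was 324.7 to 336.2 CPM in +/N440K and 232.1 to 258.6 CPM in D/N440K, against 434.2 to 437.9 CPM in +/+. Most of it was Ighm, the heavy chain constant gene, which averaged 306.7 CPM in +/N440K, 228.0 CPM in D/N440K and 396.1 CPM in +/+ and was called lower by edgeR in both N440K genotypes. The call of Ighm in +/N440K, at -0.36, did not hold with DESeq2 (adjusted p = 0.147), and that in D/N440K, at -0.79, held in every alternative. The sum at postnatal day 7 was 358.2 to 384.4 CPM in Tcf7 F/F:Vav1-Cre, against 616.6 to 712.2 CPM in Tcf7 +/+, and 7 of 8 tested genes were lower. Of all genes tested at that age, 11.1% were called lower. Pax5, the B lineage factor, had 7.28, 3.96 and 5.01 CPM in Tcf7 F/F:Vav1-Cre, against 29.3 and 16.9 CPM in Tcf7 +/+ (log2 fold change -2.13 ± 0.37, edgeR adjusted p = 0.000388). Ms4a1 at -2.78 and Ighm at -0.67 were lower too. Of the genes that define the pre-B stage, Vpreb1, Vpreb2 and Vpreb3 had 0 counts in all 5 libraries, and Igll1 had 0 counts in Tcf7 F/F:Vav1-Cre against 1 in Tcf7 +/+. The part of B-lineage cells in the higher Rag1, Rag2 and Dntt of Tcf7 +/+ was not tested.

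Among the other marker lists, the sum of 9 NK and ILC1 markers was 1921 to 2032 CPM in +/N440K and 2227 to 2265 CPM in D/N440K, against 1005 to 1112 CPM in +/+, and all 9 were higher in both. Over all genes tested, 4.79% were called higher in +/N440K and 6.1% in D/N440K. At postnatal day 7 the NK and ILC1 sum was 755.5 to 904.9 CPM in Tcf7 F/F:Vav1-Cre, against 1115 to 1306 CPM in Tcf7 +/+, and 7 of 9 were lower and 1 higher. Of all genes tested at that age, 11.1% were called lower and 12% higher. The sum of 12 DNA replication and division genes was 3565 to 3673 CPM in +/N440K, 3720 to 3775 CPM in D/N440K and 3470 to 3702 CPM in +/+, and 2027 to 2125 CPM in Tcf7 F/F:Vav1-Cre against 2750 to 3629 CPM in Tcf7 +/+. The sum of 7 myeloid markers was 224.4 to 259.6 CPM in +/N440K and 311.4 to 318.6 CPM in D/N440K, against 113.6 to 158.6 CPM in +/+, and 1122 to 1275 CPM in Tcf7 F/F:Vav1-Cre against 443.0 to 773.1 CPM in Tcf7 +/+. The sum of 8 dendritic cell markers was 661.0 to 1037 CPM in +/N440K and 881.4 to 970.3 CPM in D/N440K, against 1340 to 1495 CPM in +/+, and 2810 to 3045 CPM in Tcf7 F/F:Vav1-Cre against 2497 to 3398 CPM in Tcf7 +/+. The part of these differences in the results for Rag1, Rag2 and Dntt was not tested.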

How the data were processed

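The authors deposited tables of whole-number counts per Ensembl gene, made from RNA of FACS-sorted thymocytes by a modified RamDA-seq method with Tn5 tagmentation and PCR, per the labels' protocols. Per the submitters' processing notes, the tools were STAR 2.7.3a, HTSeq 0.11.2, fastp 0.20.0, Picard 2.21.1 and SAMtools 1.9, with mm10 (GRCm38) as the build; the annotation release and strand setting are not given in the sources used here. Reads carry no molecular identifiers, so PCR copies of a molecule may be counted as separate reads. Intervals cover the counting error of reads only, and can be too narrow for molecules. The authors' normalised tables were not used.

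Groups were taken from the sample titles, and symbols and coordinates from GENCODE M21, which held 53620 of 53801 identifiers of the Bcl11b table and 55144 of 55471 of the Tcf7 table. Each table was filtered with filterByExpr (minimum count 10), scaled by TMM and fitted with edgeR 4.0.16 (R 4.3.3) with 1 coefficient for each group, leaving 3 degrees of freedom for the residuals and a biological coefficient of variation of 0.0445 and 0.122. Tests were two-sided. Alternatives were RLE and upper-quartile scaling, no filter, a stricter filter (5 CPM in 2 libraries), DESeq2 1.42.0, limma-voom 3.58.1, a replicate block, the compared groups alone, and each library left out. The test was tried on simulated counts first. Ratios of pooled counts have exact conditional intervals at 95%, and a group at 0 is bounded at 3 counts over the group.

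Of the end joining and factor lists the text names the called genes, up to the 10 of smallest p per comparison, and of other lists up to 4. Neighbours lie within 100 kb. Profile likeness used genes tested in both tables with an average log2 CPM of at least 3. Endou, Sox13, Ptcra, Cd24a and Il2rb are also given for their profile or for the sort. The members and lists were chosen with earlier results of these data known. Figures used matplotlib 3.10.9. A few genes that the rule would name are not reported here.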

Additional observations from a re-analysis of the deposited data

How the results depend on the processing

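Rag1 against +/+ kept its direction and its call in every alternative, in both N440K genotypes and at postnatal day 7, as did Rag2 and Dntt in Tcf7 F/F:Vav1-Cre. Leaving out 1 library moved Rag1 over -7.59 to -6.38 in +/N440K, -4.62 to -3.45 in D/N440K and, at day 7, -8.94 to -8.40 in Tcf7 F/F:Vav1-Cre (log2 fold change). Rag2 ranged over -3.60 to -2.93 in +/N440K and -3.85 to -3.44 in D/N440K, and Rag1 in D/N440K against +/N440K over 2.19 to 3.63. The Dntt difference from +/+ at postnatal day 0 ranged over -2.05 to -0.830 CPM. With DESeq2, Rag2 stood at -3.31 in +/N440K (adjusted p = 0.120) and -3.82 in D/N440K (adjusted p = 0.0718), and Rag1 in D/N440K against +/N440K at 2.93 (adjusted p = 0.236), as with limma-voom at 2.61 (adjusted p = 0.146). DESeq2 called 357 genes in +/N440K, 528 in D/N440K and 4 between D/N440K and +/N440K, where edgeR called 1101, 1353 and 58. Without a filter, edgeR called 91 between D/N440K and +/N440K and 1606 in Tcf7 F/F:Vav1-Cre, where it called 2863 with the filter. Leaving out 1 library gave 726 to 1121 genes in +/N440K, 924 to 1571 in D/N440K, 25 to 91 between them and 1700 to 4612 in Tcf7 F/F:Vav1-Cre; the cause was not tested.

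Same-numbered libraries did not deviate together, with correlations of -0.061 to 0.001 in the Bcl11b table and of -0.181 and 0.116 in the Tcf7 table. With 2 or 3 libraries a group, such correlations cannot show whether the numbers pair the samples. With the replicate number as a block, 37 genes were called between D/N440K and +/N440K, and the counts of the other comparisons moved by less than 1.5 times; the block ended no call of Rag1, Rag2 or Dntt and ended that of Lig4 in D/N440K (adjusted p = 0.0597). Fitting only the groups compared gave no value for D/N440K against +/N440K, since the filter then dropped Rag1 and Rag2. Of the calls made on the other genes followed, 33 of 40 held in every alternative in +/N440K, 32 of 43 in D/N440K, 1 of 5 between them and 36 of 45 in Tcf7 F/F:Vav1-Cre, and none reversed. Groups of 2 or 3 libraries at this depth limit what can be said of genes with few counts, among them Rag2 and, at postnatal day 0, Dntt.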
